A study of Mus musculus with 5 samples.

Results

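The solute carriers treated here are the membrane transporters for sugars, amino acids and lactate, taken as every gene of the count table whose symbol belongs to the Slc1, Slc2, Slc3, Slc7, Slc16, Slc38 or Slc43 families. There were 64 such genes among the 24084 genes of the table. They were measured by RNA sequencing in regulatory T cells (Tregs), the CD4 T cells that express Foxp3 and restrain immune responses. The Tregs came from mice of the Foxp3-DTR strain aged 13 days, which the series describes as Foxp3-DTR/GFP, a line in which cells that express Foxp3 carry a toxin receptor and a green fluorescent reporter. Skin Tregs gave 2 libraries and Tregs of the skin-draining lymph nodes gave 3, all of them of that strain and age and with no treatment named. The sources used here give neither the sort gates nor the number of animals behind a library.

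Activated T cells draw on outside nutrients, and most of these enter through solute carriers. Facilitated glucose carriers of the Slc2 family (GLUT proteins) pass hexoses down their gradient, and monocarboxylate carriers of the Slc16 family (MCT proteins) move lactate and pyruvate together with protons. Amino acids enter through the sodium-coupled Slc1 and Slc38 carriers and through the exchangers and uniporters of the Slc7 and Slc43 families. Several Slc7 proteins are light chains that reach the cell surface only when joined to the heavy chain encoded by Slc3a2 (CD98).

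Gene counts per library were 10787378 and 10468795 in skin and 12305644 to 14595018 in lymph node. Values are CPM (gene counts divided by library size, with TMM factors applied), and a gene was called at an adjusted p under 0.05 by edgeR's quasi-likelihood test over all 11437 genes that passed a filter on low counts. The skin libraries differed widely from each other. Across those genes their log2(CPM + 1) values correlated at r = 0.646, against 0.935 to 0.942 between lymph node libraries and 0.622 to 0.679 between a skin and a lymph node library. Foxp3 itself had 78.0 and 118 CPM in skin and 89.6 to 99.8 CPM in lymph node, and T cell markers were present in both groups, at a summed 6951 and 7231 CPM in skin and 7104 to 8598 CPM in lymph node. Of these 7 markers Ctla4 was called higher in skin (14.3%, beside 2.40% of all tested genes). Cd3d, Cd3e, Cd3g and Cd4 lay below every lymph node library without being called, and 33.5% of all tested genes lay below. Markers of myeloid cells summed to 2028 and 2525 CPM in skin and to 12.9 to 26.9 CPM in lymph node. Of 14 tested ones 9 were called higher (64.3%, beside 2.40% of all tested genes) and 0 lower (beside 5.30%). In lymph node 8 of 16 had no count in any library. Keratinocyte markers summed to 134 and 172 CPM in skin and 12.8 to 18.5 CPM in lymph node. Of 5 tested ones 1, Krt14, was called higher in skin, while Krt10 had no count in skin but 2.32 to 4.31 CPM in lymph node. B cell markers summed to 22.1 and 72.3 CPM in skin and 79.3 to 214 CPM in lymph node, with Ms4a1 and Cd79a at 0 in skin. Of 5 endothelial markers 1 was tested, Pecam1, which other cells also express. It had 55.9 and 2.90 CPM in skin and 352 to 499.8 CPM in lymph node. Emcn (12.9 and 0 CPM) and Kdr (0.187 and 0 CPM) had counts in skin library 1 alone. Tek had 1.29 CPM in lymph node library 3 alone, and Cdh5 had no count. All these cell types also use nutrient carriers, and their part in the values below, the transporters at 0 in skin included, was not tested. In such bulk libraries fewer cells of a type and less RNA per cell cannot be told apart.

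Among the transporters, 1 gene was called lower in skin Tregs, Slc2a9, and 0 were called higher. Of the 64 genes, 29 passed the filter, 10 had counts too low to be tested (at most 55 in a library) and 25 had no count in any library. The 1 call of 29 is 3.45%, beside 7.70% of all tested genes. By direction the background was 2.40% called higher and 5.30% called lower. At an unadjusted p under 0.05 edgeR found 2 transporters higher (6.90%, beside 10.1% of all tested genes) and 4 lower (13.8%, beside 19.4%). DESeq2 called 8 of 29 (4 higher, 4 lower), beside 28.5% of all genes, and limma-voom called 5 of 29 (1 higher, 4 lower), beside 19.5%. The median log2 fold change of skin over lymph node was -0.05 over the 29 tested transporters and -0.21 over all tested genes. A positive fold change was found for 14 of the 29 (44.3% of all tested genes).

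The skin values lay above every lymph node value for 4 of the 29 (16.8% of all tested genes) and below every one for 5 (33.5%). The 4 were Slc38a2, Slc2a1, Slc38a10 and Slc3a2. The 5 were Slc38a1 and 4 genes of low level without a count in skin, Slc2a9, Slc38a7, Slc16a4 and Slc16a13. For the other 20 the groups overlapped. The 95% interval of the log2 fold change included 0 for 23 of the 29, also for Slc2a1 and Slc3a2, whose skin values were close. The absence of a call therefore does not show that levels were alike.

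**Figure D1:**
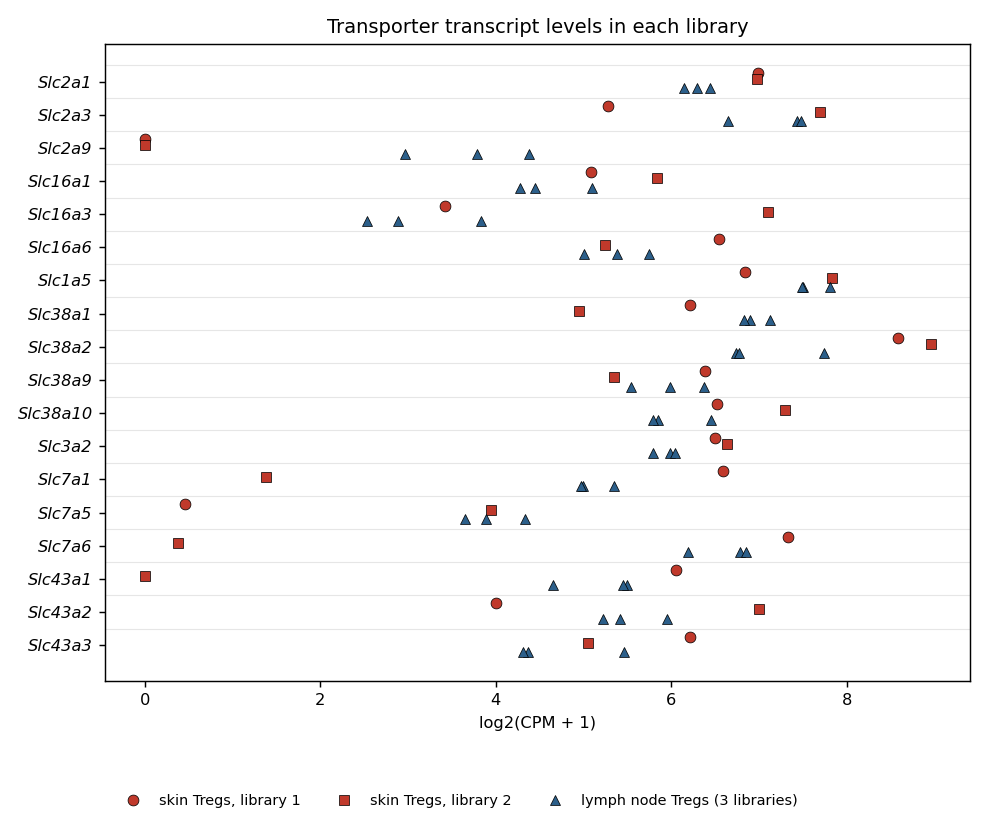
Transcript levels of the 18 tested transporters that were called, averaged 20 CPM or more in a group, or were chosen by name, on a log2(CPM + 1) axis. Circles and squares are skin Treg libraries 1 and 2, and triangles are the 3 lymph node Treg libraries. Slc2a1 and Slc3a2 have close skin values above all triangles, whereas Slc7a6, Slc7a1 and Slc43a1 have skin library 2 near the low end and skin library 1 above the triangles.

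The regions in front of the 4 genes with skin values on the upper side are shown, since no other tested transporter lay above in both skin libraries. Each is the 250 bases upstream of the start given by RefSeq (GRCm38.p6, the assembly of mm10), read 5′ to 3′ on the strand of the gene. Capitals mark ACGTG, or CACGT where the match is on the other strand, the core of the element bound by hypoxia-inducible factors, which also lies inside the Myc-binding E-box CACGTG. Slc38a2 is at chr15:96699729-96699978 on the minus strand, Slc2a1 at chr4:119108495-119108744 on the plus strand, Slc38a10 at chr11:120151352-120151601 on the minus strand and Slc3a2 at chr19:8713898-8714147 on the minus strand, 9472 bases inside the longest annotated form of that gene.
Slc38a2: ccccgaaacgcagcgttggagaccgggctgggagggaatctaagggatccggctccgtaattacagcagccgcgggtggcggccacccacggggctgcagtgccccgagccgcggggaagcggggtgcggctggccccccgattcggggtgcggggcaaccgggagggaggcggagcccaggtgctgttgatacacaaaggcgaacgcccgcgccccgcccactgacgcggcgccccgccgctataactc
Slc2a1: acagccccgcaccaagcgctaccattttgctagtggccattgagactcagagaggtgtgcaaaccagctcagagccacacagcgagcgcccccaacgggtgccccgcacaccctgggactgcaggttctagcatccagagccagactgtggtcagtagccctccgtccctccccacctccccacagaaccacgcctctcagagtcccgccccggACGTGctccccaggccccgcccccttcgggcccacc
Slc38a10: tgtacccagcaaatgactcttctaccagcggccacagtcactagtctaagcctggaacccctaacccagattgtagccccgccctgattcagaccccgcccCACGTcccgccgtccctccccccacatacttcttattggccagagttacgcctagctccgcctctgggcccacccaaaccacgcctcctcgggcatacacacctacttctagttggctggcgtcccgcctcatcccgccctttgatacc
Slc3a2: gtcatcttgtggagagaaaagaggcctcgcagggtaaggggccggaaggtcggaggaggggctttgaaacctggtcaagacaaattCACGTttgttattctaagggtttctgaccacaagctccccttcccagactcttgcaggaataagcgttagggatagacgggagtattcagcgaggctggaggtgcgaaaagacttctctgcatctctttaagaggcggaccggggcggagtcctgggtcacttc

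The core stood once in front of Slc2a1, Slc38a10 and Slc3a2 and was not in the window of Slc38a2. Of the 29 tested transporters, 20 had a window in the table used, and 8 of these held the core in at least 1 window. Counted by window, that is 9 of their 27 windows (33.3%), beside 16.6% of all 32851 windows. The full CACGTG was found in 3 of the 27 windows (11.1%; Slc16a1, Slc38a7 and Slc43a1) and in 6.02% of all windows. The element TGATGNAAN, searched on both strands as a form of the site bound by ATF4, was found in 2 of the 27 (7.41%; both of Slc7a7) and in 3.44% of all windows. A match describes letters only.

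Slc38a2 (SNAT2), a sodium-coupled carrier of small neutral amino acids such as alanine and glutamine, had the highest level per length of any transporter in skin. Its level was 384 and 497 CPM in skin Tregs, against 106, 212 and 108 CPM in lymph node Tregs. Both skin libraries lay above all 3 lymph node libraries. The log2 fold change was 1.63 (SE 0.39, 95% interval 0.65 to 2.61), and edgeR's adjusted p of 0.0589 missed the threshold. DESeq2 and limma-voom gave adjusted p of 0.00386 and 0.0248. With skin library 1 as the only skin library the log2 fold change was 1.43 (adjusted p = 0.0279 by edgeR), and with library 2 alone the adjusted p was 0.00751, each lone library being assumed to vary like the lymph node ones.

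Slc38a1 (SNAT1), a carrier with similar substrates, lay on the other side. Its level was 73.2 and 30.0 CPM in skin Tregs and 118, 139 and 112 CPM in lymph node Tregs, with no overlap. The log2 fold change was -1.26 (95% interval -2.52 to 0.01), with an adjusted p of 0.173 by edgeR. It was -2.04 without skin library 1 and -0.76 without skin library 2. Within a library, the ratio of Slc38a2 to Slc38a1, each per kb of exon, was 10.2 and 32.3 in skin and 1.74, 2.98 and 1.89 in lymph node. Slc38a2 made up 65.1 and 65.4% of the summed per-kb level of the Slc38 family in skin and 32.4 to 46.7% in lymph node. These ratios use all annotated exons, which for Slc38a1 sum to 17236 bases, so their absolute size depends on the annotation.

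Slc38a10, a member of the same family with a less settled role, had 90.5 and 156 CPM in skin Tregs and 56.5, 86.7 and 54.3 CPM in lymph node Tregs. The skin library 1 value stood just above the highest lymph node value (log2 fold change 0.90, adjusted p = 0.247 by edgeR). Slc38a9, which encodes the lysosomal arginine sensor that signals to mTORC1, had 82.2 and 39.5 CPM in skin and 81.5, 62.3 and 45.6 CPM in lymph node, with overlapping groups (log2 fold change -0.05, 95% interval -1.46 to 1.35). Slc38a7, a lysosomal glutamine carrier, had no count in either skin library and 7.23, 3.53 and 18.1 CPM in lymph node. Pooled over libraries, this is at least 68.5-fold lower in skin against a floor of 3 counts over the group (0.145 CPM), with an adjusted p of 0.0556 by edgeR. Slc38a6, another family member, had 0 and 10.2 CPM in skin and 9.96 to 14.3 CPM in lymph node. Summed over the 11 Slc38 genes, the level was 629 and 732 CPM in skin and 387, 514 and 353 CPM in lymph node, without overlap, and Slc38a2 held most of the sum in both skin libraries.

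Slc2a1 (GLUT1), the glucose carrier that T cells bring to the surface on activation, was closely matched between the skin libraries. It had 125.4 and 125.1 CPM in skin Tregs and 77.4, 86.0 and 69.8 CPM in lymph node Tregs. The groups did not overlap, and the skin mean was 1.61-fold that of lymph node. The log2 fold change of 0.69 (SE 0.33) had an adjusted p of 0.233 by edgeR, 0.0134 by DESeq2 and 0.138 by limma-voom. A short stretch of its exons overlaps Gm12868 on the other strand, whose reads cannot be told apart there without strand. Slc2a3 (GLUT3), a glucose carrier of high affinity, split the skin libraries instead, with 37.9 and 205 CPM in skin and 98.8, 171 and 177 CPM in lymph node. Skin library 1 lay below and skin library 2 above every lymph node library (log2 fold change -0.29, 95% interval -2.15 to 1.56). Slc2a3 made up 9.46 and 44.2% of the summed per-kb level of Slc2 genes in skin, against 34.0, 45.0 and 50.3% in lymph node. Slc2a1 made up 64.7 and 55.7% in skin and 55.1, 46.8 and 40.9% in lymph node.

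The single call concerned a sugar family gene of low level. Slc2a9 (GLUT9; mm10 chromosome 5, 38349273 to 38503143) is best known as a carrier of urate. It had no count in either skin library and 6.81, 19.8 and 12.8 CPM in lymph node Tregs, at least 88.8-fold lower in skin against the same floor (adjusted p = 0.0490 by edgeR). With both skin values at 0 the fit sees no spread in skin, and the gene passed the low-count filter through its lymph node counts alone. Without that filter the adjusted p was 0.0658 by edgeR. Leaving out any of the lymph node libraries ended the call (adjusted p 0.113 to 0.117), in edgeR fits that called 0 of all genes while 2361 to 2485 had an unadjusted p under 0.05. Slc2a9 was at 0 in skin together with 5 other tested transporters, namely Slc38a7, Slc16a13, Slc16a4, Slc16a5 and Slc7a4, each at least 4.63- to 68.5-fold lower in skin against that floor. Slc16a5 had no count in lymph node library 1 either and Slc7a4 none in lymph node library 2. Both therefore overlapped the skin values (adjusted p = 0.217 and 0.242 by edgeR). The 6 of 29 at 0 in skin (20.7%) stand beside 11.4% of all tested genes without a skin count. All such genes entered the test through lymph node counts alone. Slc2a8 and Slc2a6, intracellular members of the family, had 18.8 and 27.1 CPM in skin library 1, no count in skin library 2, and at most 1.33 and 9.48 CPM in a lymph node library. The insulin-responsive Slc2a4 (GLUT4) and the fructose carrier Slc2a5 had no count in any library.

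**Figure D2:**
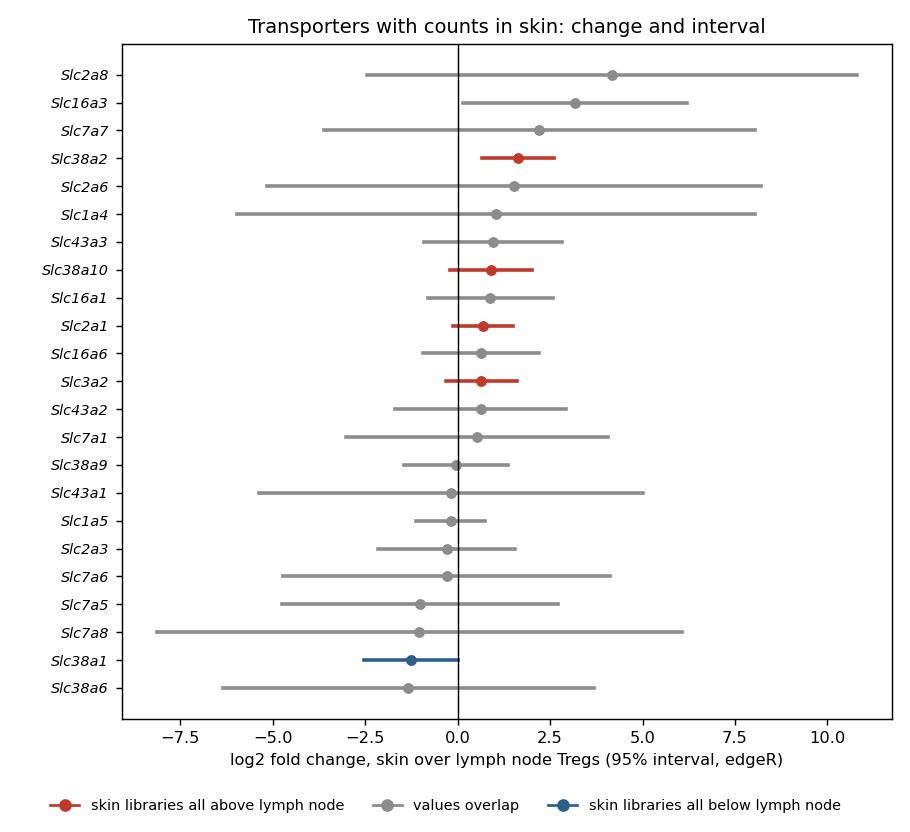
Log2 fold change of skin over lymph node Tregs with its 95% interval from edgeR, for the 23 tested transporters with a count in skin (the 6 without one are not drawn). Red and blue mark genes whose skin values lay all above or all below the lymph node values. The interval excludes 0 for Slc38a2 and Slc16a3, whose adjusted p were 0.0589 and 0.155.

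Slc16a3 (MCT4), a lactate exporter of glycolytic cells, had 9.73 and 136 CPM in skin Tregs and 6.39, 4.78 and 13.2 CPM in lymph node Tregs. Skin library 1 lay within the lymph node range and skin library 2 far above it, and the log2 fold change of 3.16 (SE 1.21) had an adjusted p of 0.155 by edgeR. Without skin library 2 the log2 fold change was 0.25. Slc16a1 (MCT1), which carries lactate in either direction, had 32.9 and 56.0 CPM in skin and 20.7, 18.4 and 33.1 CPM in lymph node, with groups that just overlapped (log2 fold change 0.89, adjusted p = 0.457 by edgeR). The per-kb ratio of Slc16a3 to Slc16a1 was 0.246 and 2.02 in skin and 0.257, 0.216 and 0.333 in lymph node. Slc16a6 (MCT7), linked to ketone body export in zebrafish, had 92.4 and 36.8 CPM in skin and 52.5, 40.8 and 31.1 CPM in lymph node. Its exons overlap those of Amz2 and Arsg on the other strand, so its reads cannot be fully separated without strand. Summed over the 14 Slc16 genes, the level was 136 and 229 CPM in skin and 94.4, 78.5 and 85.5 CPM in lymph node, without overlap. In skin library 2 Slc16a3 made up most of that sum, and in skin library 1 Slc16a6 did, so the skin sums rested on different genes.

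Slc1a5 (ASCT2), the main glutamine exchanger of activated T cells, was the transporter of highest level per length in lymph node Tregs. It had 114 and 226 CPM in skin and 223, 180.2 and 179 CPM in lymph node, so that the groups overlapped (log2 fold change -0.19, 95% interval -1.12 to 0.74). Among the tested transporters only Slc2a1 had a narrower interval. The related Slc1a4 (ASCT1) had counts in 1 library of each group, and the 5 other Slc1 genes, among them the glutamate carriers Slc1a2 and Slc1a3, had none.

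Slc3a2, the heavy chain that carries its light chains to the surface (mm10 chromosome 19, 8706882 to 8723369) had 89.7 and 98.6 CPM in skin Tregs and 62.4, 64.7 and 54.4 CPM in lymph node Tregs. The groups did not overlap (log2 fold change 0.64, 95% interval -0.32 to 1.59, adjusted p = 0.339 by edgeR, 0.0369 by DESeq2 and 0.198 by limma-voom). Slc7a6 (y+LAT2), a light chain that exchanges basic for neutral amino acids, was the most abundant light chain in lymph node. It had 159.7 and 0.300 CPM in skin (3 counts in skin library 2), against 109, 114 and 72.0 CPM in lymph node. Skin library 1 lay above and skin library 2 far below the lymph node range. Slc7a5 (LAT1), the carrier of leucine and other large neutral amino acids, had 0.374 and 14.4 CPM in skin and 11.6, 19.2 and 13.8 CPM in lymph node. Here skin library 1 lay far below the lymph node range and skin library 2 within it.

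Summed per kb over the 6 light chain genes (Slc7a5, Slc7a6, Slc7a7, Slc7a8, Slc7a10 and Slc7a11), the level relative to Slc3a2 was 1.64 in skin library 1 and 0.143 in skin library 2, against 1.54, 1.74 and 1.34 in lymph node. The mix differed between the skin libraries too. Slc7a6 made up 83.6 and 1.64% of the light chain level in skin and 76.1 to 87.9% in lymph node, and Slc7a5 made up 0.242 and 97.1% in skin, against 11.5% in lymph node library 1 and 16.3% in library 2, with the highest lymph node share in library 3. Slc7a7 (y+LAT1) had 21.3 and 0 CPM in skin and 0.211, 5.41 and 1.29 CPM in lymph node, and some of its exonic bases overlap Oxa1l. Slc7a11 (xCT), the cystine carrier, was near absent, with 6 and 7 counts in skin and 1, 2 and 4 counts in lymph node, too few to be tested.

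**Figure D3:**
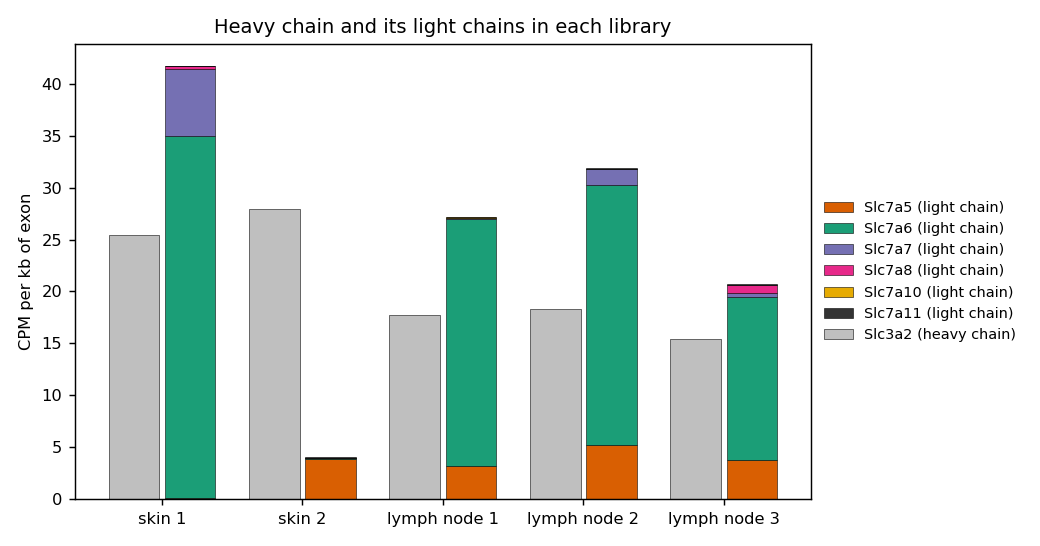
Level of the heavy chain gene Slc3a2 (grey) and of its light chain genes (stacked) in each library, in CPM per kb of annotated exon. The light chains stand at 41.8 and 3.99 in skin libraries 1 and 2 and between 20.7 and 31.9 in the lymph node libraries, while Slc3a2 stays between 15.4 and 27.9 in all 5.

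Slc7a1 (CAT1), the main importer of arginine and lysine, which needs no heavy chain, had 94.9 and 1.60 CPM in skin Tregs and 30.8, 39.7 and 30.4 CPM in lymph node Tregs. The skin values enclosed the lymph node range on both sides (log2 fold change 0.52, 95% interval -3.02 to 4.06). Summed over the 15 Slc7 genes, the level was 278 and 17.0 CPM in skin and 153, 179 and 123 CPM in lymph node. Among the Slc43 genes, Slc43a1 (LAT3) had 65.1 and 0 CPM in skin and 44.1, 42.6 and 24.1 CPM in lymph node. Slc43a2 (LAT4), a second uniporter of large neutral amino acids, had the reverse split, with 15.1 and 127 CPM in skin and 41.5, 36.2 and 60.8 CPM in lymph node. The sum of the 3 Slc43 genes came to 153 and 159 CPM in skin and 129, 98.5 and 104 CPM in lymph node. Per kb of exon the sum was 29.3 and 19.8 in skin and 21.5, 15.5 and 14.5 in lymph node, with overlap. The family total was therefore close between the skin libraries in CPM but not per length. Slc43a3, a carrier of purine nucleobases, had 73.2 and 32.2 CPM in skin and 43.2, 19.6 and 18.9 CPM in lymph node.

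**Figure D4:**
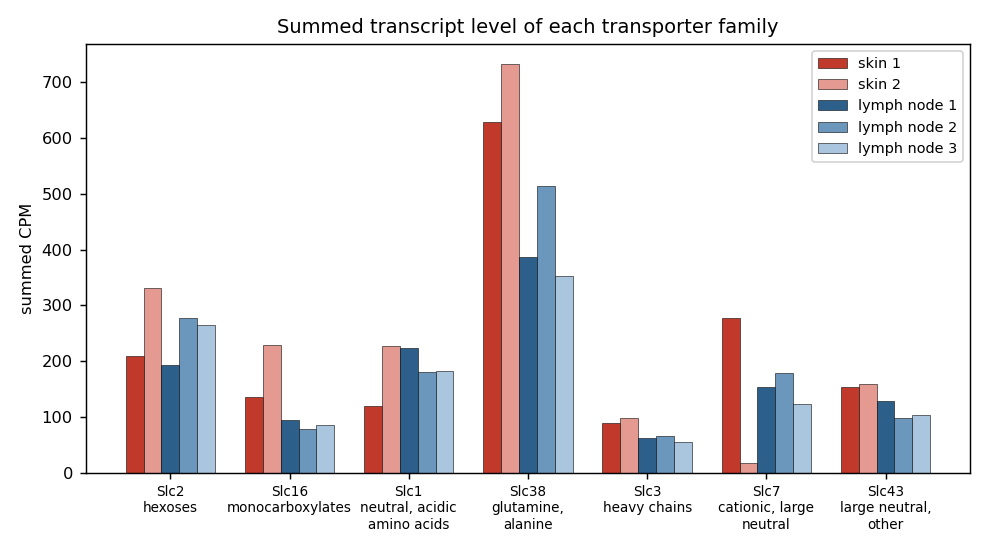
Summed CPM of each transporter family in each library (skin in red, lymph node in blue). Slc38, Slc16, Slc3 and Slc43 stand above all lymph node libraries in both skin libraries, while the Slc7 sum is 278 in skin library 1 and 17.0 in skin library 2. Summed per kb of exon instead, Slc43 overlaps between the groups.

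Of 16 tested transporters that averaged 20 CPM or more in a group, 6 differed over 4-fold between the skin libraries on CPM + 1 (37.5%), beside 33.3% of the 7847 genes at that level. None of the 16 differed over 4-fold among the lymph node libraries, beside 3.02% of those genes. The 6 were Slc7a6, Slc7a1 and Slc43a1, each higher in library 1, and Slc2a3, Slc43a2 and Slc16a3, each higher in library 2. Counts of 0 in exactly 1 skin library were found for 7 of the 29 (24.1%), beside 19.9% of all tested genes. In 6 of these 7 the empty library was skin library 2 (20.7% of the 29, beside 12.5% of all tested genes, against 3.45% beside 7.43% for library 1). In that library 20 of the 64 transporters had a count (31.3%, beside 38.2% of all genes), against 25 in skin library 1 (39.1%, beside 41.1%) and 28 to 32 in lymph node.

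For several transporters the direction of change depended on the skin library used. A fit with 1 skin library takes its spread from the lymph node libraries alone, so its calls have no skin replicate behind them. With skin library 2 as the only skin library edgeR called 11 transporters, beside 48.7% of all genes tested, and with skin library 1 alone it called 10, beside 39.2%. Slc38a2, Slc2a9, Slc38a7 and Slc16a13 were called in the same direction in both. Slc43a2 and Slc7a1 were called in both but in opposite directions, Slc43a2 at a log2 fold change of 1.45 with library 2 and -1.62 with library 1, and Slc7a1 at -4.39 with library 2 and 1.49 with library 1. Slc7a6 was called with library 2 alone, at -8.32, and Slc2a3 with library 1 alone, at -1.98.

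**Figure D5:**
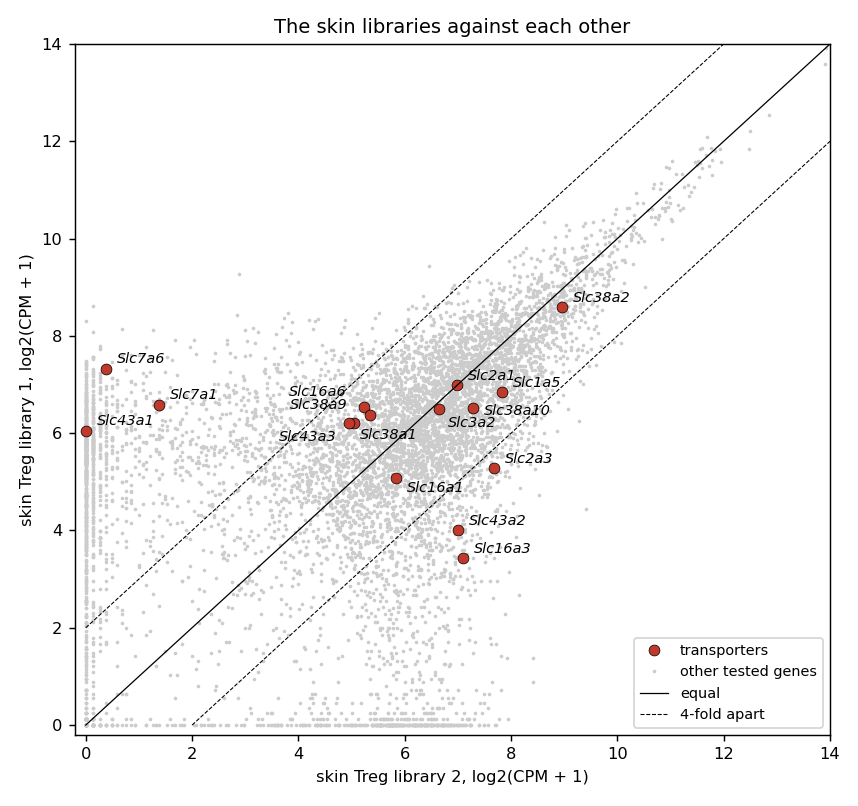
Levels in skin Treg library 1 against skin Treg library 2 on log2(CPM + 1) axes, for the 16 tested transporters (red) and other tested genes (grey) that averaged 20 CPM or more in a group. The solid line marks equal levels and the dashed lines a 4-fold difference. Slc2a1, Slc3a2 and Slc38a2 lie near the solid line, and 6 transporters lie outside the dashed lines.

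Genes that act with the transporters were taken from 6 lists, in which edgeR called 7 of 77 tested genes higher in skin (9.09%, beside 2.40% of all genes) and 1 lower (1.30%, beside 5.30%). In glycolysis 3 of 16 tested genes rose, 0 fell and 13 did not pass (18.8% called, beside 7.70% of all genes; median log2 fold change 1.52). Pkm, which makes pyruvate in the last step, rose to 2059 and 2016 CPM in skin Tregs, against 588, 553 and 902 CPM in lymph node Tregs (log2 fold change 1.58, adjusted p = 0.0452 by edgeR), and Aldoa and Tpi1 were the others. Ldha, which converts pyruvate to lactate, had 2841 and 1922 CPM in skin and 1318, 973 and 1187 CPM in lymph node, without overlap (adjusted p = 0.0557 by edgeR). Gapdh (15.1 and 5.59 CPM in skin), Pgk1 (6.46 and 19.8) and Pgam1 (3.37 and 2.40) stood low, with at most 5.84 CPM in a lymph node library. Eno1 was too low to be tested. The lack of a call for these genes therefore says little. Reads not aligned uniquely were left out, and their part in these low values was not tested. Myeloid markers stood at 2028 and 2525 CPM in the same skin libraries, and their part was not tested.

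Among 16 genes of amino acid use 2 rose, 0 fell and 14 did not pass (12.5% called, beside 7.70% of all genes). Glud1, the mitochondrial glutamate dehydrogenase, rose to 368 and 587 CPM in skin, against 109, 99.0 and 83.2 CPM in lymph node (log2 fold change 2.30, adjusted p = 0.0381 by edgeR). Got1, the cytosolic aspartate aminotransferase, rose as well (log2 fold change 1.29, adjusted p = 0.0484 by edgeR). In the list of mTORC1 amino acid sensing, 1 of 22 tested genes rose, 1 fell and 20 did not pass (9.09% called, beside 7.70% of all genes). Rptor, the substrate-binding subunit of mTORC1, rose to 177 and 184 CPM in skin, against 37.7 to 40.9 CPM in lymph node (log2 fold change 2.22, adjusted p = 0.0411 by edgeR). Rragd, a GTPase that recruits mTORC1 to lysosomes, had no count in skin and 8.57, 11.2 and 7.20 CPM in lymph node (adjusted p = 0.0484 by edgeR).

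Of 9 transcription factors and kinases of nutrient control 1 rose, 0 fell and 8 did not pass (11.1% called, beside 7.70% of all genes). Hif1a, the oxygen-sensing factor whose targets include Slc2a1 and Slc16a3, rose to 427 and 541 CPM in skin, against 150.4, 104 and 66.5 CPM in lymph node (log2 fold change 2.18, adjusted p = 0.0463 by edgeR). Myc had 97.1 and 0.0999 CPM in skin and 191, 278 and 293 CPM in lymph node, below them in both but with an adjusted p of 0.475 by edgeR. Atf4, the amino acid stress factor, overlapped (170 and 104 CPM in skin, 147, 124 and 138 CPM in lymph node). Of 6 carrier partners and endocytic adaptors 0 passed by edgeR (beside 7.70% of all genes), and 1, Txnip, was lower at an unadjusted p under 0.05 (19.4% of all tested genes). Bsg, the chaperone that brings MCT1 and MCT4 to the surface, had 84.5 and 56.1 CPM in skin and 11.5, 36.8 and 17.9 CPM in lymph node (adjusted p = 0.202). Emb, an alternative chaperone, had 266 and 105 CPM in skin and 370, 332 and 334 CPM in lymph node (adjusted p = 0.237 by edgeR). Txnip, which promotes the removal of GLUT1 from the surface, had 386 and 427 CPM in skin and 664, 719 and 671 CPM in lymph node, without overlap (adjusted p = 0.0577 by edgeR). Of 8 tested carriers of other families 0 passed by edgeR (beside 7.70% of all genes). At an unadjusted p under 0.05 there were 3, 1 higher and 2 lower, beside 10.1% higher and 19.4% lower over all tested genes. Over the 77 tested list genes DESeq2 called 13 higher (16.9%) and 7 lower (9.09%). Over all 11437 genes it called 1235 higher and 2027 lower (28.5% in either direction). Limma-voom called 11 list genes higher (14.3%) and 4 lower (5.19%), together 19.5%. Over all 11437 genes it called 566 higher and 1665 lower, also 19.5% together. Higher calls thus outnumbered lower ones in the lists, and the reverse held over all genes. The myeloid signal described above stood beside all these skin values.

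Compared per length, the order of the transporters differed between tissues. In skin Tregs Slc38a2 came first at 49.8 ± 9.07 CPM per kb, followed by Slc1a5 at 40.8 ± 19.1, Slc2a1 at 35.7 ± 0.0578 and Slc3a2 at 26.7 ± 1.78 (SD, n = 2). Slc38a2 and Slc1a5, as neighbors in this order, did not differ beyond their spread. In lymph node Tregs Slc1a5 came first at 46.5 ± 6.06 CPM per kb, well clear of Slc2a1 at 22.2 ± 2.31, Slc7a6 at 21.6 ± 5.07, Slc2a3 at 20.6 ± 6.02, Slc3a2 at 17.1 ± 1.54 and Slc38a2 at 16.1 ± 6.88 (SD, n = 3). The last 5 named did not differ from their neighbors beyond the spread. Slc16a3 stood last of the 18 in lymph node and at rank 8 in skin, where library 2 alone was high (25.6 CPM per kb, against 1.83 in library 1).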

How the data were processed

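The authors deposited raw whole-number counts, 1 row per gene symbol and 1 column per library. Tools named in the submitters' processing notes are HTSeq 0.6.1, TopHat2 2.0.12, CASAVA 1.8.2, SAMtools 0.1.19.0 and Bowtie2 2.1.0.0, on build mm10. The sources used here state neither options nor strand setting. Per the labels' protocols cDNA was made with a SMARTer ultra-low-input kit. The header stands 1 cell to the left of its values and was read so. The 5 HTSeq summary rows, of which reads not aligned uniquely were 64.5 to 72.0% of all counts (genes 19.3 to 21.7%), were left out, so reads shared by close paralogs or pseudogenes are missing.

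Counts were fitted across all genes with edgeR 4.0.16 in R 4.3.3 (filterByExpr, minimum count 10, TMM, quasi-likelihood F test, Benjamini-Hochberg over all tested genes), after tests on simulated data. The SE is the log2 fold change over the square root of F. Exon lengths and positions come from GENCODE M21 (GRCm38), matched by symbol for all 64 transporters. Floors are 3 counts and cover counting error only. No label names separate animals, so the p-values reflect variation among libraries only, part of which may be technical. With 2 and 3 libraries the smallest two-sided exact permutation p is 0.1, and no such test was run.

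The genes and lists were chosen with earlier results of these data known. Genes were named by a rule: transporters that were called, averaged 20 CPM in a group or stood on a short list, and list genes that were called or of central role. The cell type markers, Slc38a7, Slc38a6, Slc2a8, Slc2a6, Slc7a7, Slc1a4, Slc16a13, Slc16a4, Slc16a5, Slc7a4, Gapdh, Pgk1, Pgam1 and Eno1 fall outside it, as do the transporters named as uncounted, and were picked once their values were known. Alternatives were RLE and upper quartile scaling, library totals, no filter, a minimum count of 50, DESeq2 1.42.0, limma-voom (limma 3.58.1), a replicate block and leaving out each library.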

Additional observations from a re-analysis of the deposited data

How the results depend on the processing

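The lowest counts of calls came without a lymph node library and the highest without a skin library. Leaving out 1 library at a time, calls ranged over all genes from 0 to 6065 (0 to 2110 higher, 0 to 3955 lower), over transporters from 0 to 4 higher and 0 to 7 lower, and over the 6 lists from 0 to 21 higher and 0 to 29 lower. The 0 counts belong to the fits without a lymph node library, in which 2361 to 2485 genes had an unadjusted p under 0.05. The median log2 fold change of the tested transporters ranged from -3.28 (without skin library 1) to 0.46. Log2 fold changes ranged from -4.39 to 1.49 for Slc7a1, -1.62 to 1.45 for Slc43a2, -8.32 to 0.69 for Slc7a6, -11.90 to 0.81 for Slc43a1, -1.98 to 0.46 for Slc2a3, -0.78 to 0.22 for Slc1a5, -0.18 to 1.15 for Slc16a6 and -0.68 to 0.37 for Slc38a9. Slc38a2, Slc2a1, Slc3a2, Slc38a10, Slc16a1, Slc16a3 and Slc43a3 kept a positive sign and Slc38a1, Slc7a5 and Slc2a9 a negative one under every alternative run. The ratio of summed family levels, skin over lymph node, ranged from 0.112 to 1.83 for Slc7, 0.606 to 1.16 for Slc1 and 0.849 to 1.34 for Slc2; the other families stayed above 1.

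No low-count filter gave 315 calls (136 higher, 179 lower), 0 transporters lower, and 0 list genes lower, with Slc2a9 at an adjusted p of 0.0658. A minimum count of 50 gave 1391 (419 higher, 972 lower), 2 transporters lower (Slc2a9 and Slc38a7) and 2 list genes lower. DESeq2 gave 3262 (1235 higher, 2027 lower), 4 transporters higher and 4 lower, and 13 list genes higher and 7 lower. Limma-voom gave 2231 (566 higher, 1665 lower), 1 transporter higher and 4 lower, and 11 list genes higher and 4 lower, with Slc43a2 at -0.13 and Slc7a1 at -1.34. Upper quartile scaling gave 3 list genes lower and moved the median of all genes from -0.21 to -0.37. The causes were not tested.

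The labels number replicates 1 and 2 in both groups without saying that a number is shared material. Deviations from group means correlated at -0.036 and -0.0323 for the same-numbered libraries. With 2 skin libraries these deviations mirror each other, so the values cannot decide whether the numbers pair the libraries. The fit with the replicate number as a block gave 21 calls (11 higher, 10 lower), 0 transporters lower, 0 list genes higher and 0 lower, Slc7a1 at -1.47 and 772 genes at an unadjusted p under 0.05.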
